A study of Rattus norvegicus with 24 samples.

Results

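The genes described here encode the 2 main opioid peptide precursors of the brain, prodynorphin (Pdyn) and proenkephalin (Penk), the kappa, mu and delta opioid receptors (Oprk1, Oprm1 and Oprd1) and the enzymes that turn the precursors into active peptides (Pcsk1, Pcsk2 and Cpe). A probe set was included when the annotation of the array gave exactly 1 of these 8 symbols, which found 11 probe sets for 7 genes among 31042 probe sets without controls. No probe set carried the symbol Pcsk1, so no value is given for that gene, although 9780 probe sets had no symbol. Of the 11 probe sets, 5 were above a log2 level of 4 on at least 6 arrays and entered the statistical test with 15177 probe sets in all: 2 for Pdyn and 1 each for Penk, Pcsk2 and Cpe. The 6 probe sets of the 3 receptors did not pass this filter.

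The study measured RNA of the dentate gyrus of male Long-Evans rats on Affymetrix rat genome arrays. Aged Impaired and Aged Unimpaired rats were 24 to 26 months old, and Young rats were 6 months old. Aged rats had been scored by a learning index in the Morris water maze, in which a rat learns where a hidden platform lies: Aged Impaired rats scored worse than the young range and Aged Unimpaired rats scored within it. All rats were housed singly, received no treatment, and gave tissue 2 weeks after behavioural testing. Values were given for 7 Aged Impaired, 6 Aged Unimpaired and 8 Young arrays, each labelled as a biological replicate, so the p-values measure the spread between these rats.

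Opioid precursors are cut into short peptides inside dense core vesicles and released with other transmitters. Pdyn gives the dynorphins, which act mainly on the kappa receptor, and Penk gives the enkephalins, which act mainly on the delta and mu receptors. In the dentate gyrus, granule neurons carry dynorphin in their mossy fibre terminals, and enkephalin is found in the perforant path that enters from the entorhinal cortex as well as in dentate neurons. The prohormone convertases Pcsk1 and Pcsk2 cut precursors after pairs of basic amino acids, and carboxypeptidase E (Cpe) removes those basic residues from the ends.

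Over all probe sets, the medians of the arrays lay between 3.77 and 3.84. Over the 15177 tested probe sets, any pair of arrays correlated at 0.984 to 0.994. Of these probe sets, 72.4% were positive for Aged Impaired minus Aged Unimpaired, with a median of 0.05, which was -0.01 after median centring. The number of arrays limits the precision of every value. Of 12 measured granule neuron markers, 10 were above the filter. So were 8 of 8 CA1 and 11 of 14 CA3 and CA2 pyramidal neuron markers, so the filter does not check the tissue label. No granule neuron marker differed between groups past an adjusted p of 0.05 by limma. For all aged rats against Young, 4 of the 10 had an unadjusted p under 0.05 by limma, as did 1323 of 8737 genes. Calb1 (-0.17), C1ql3 (-0.27) and Rfx3 (-0.26) were lower, and Dsp (0.70) was higher. The linear levels of all 12 granule neuron markers summed to between 13569 and 17085 on Aged Impaired, between 13238 and 17491 on Aged Unimpaired and between 13847 and 19325 on Young arrays. Markers of meningeal fibroblasts, of which 3 of 13 were above the filter, summed to between 1438 and 17408 on Aged Impaired, between 1257 and 1801 on Aged Unimpaired and between 1194 and 3181 on Young arrays. Aged Impaired replicates 2, 3 and 7 and Young replicate 5 were known from earlier results to be high in them. Values without these arrays are given with Pdyn and Penk and in the account of the alternatives. In bulk tissue, a lower level from fewer cells of a type and one from less RNA per cell cannot be told apart.

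Pdyn was higher in both aged groups than in Young rats on both of its probe sets. The genes were chosen by this difference, known from earlier results of these arrays, and the other members were added for their function, so the Pdyn difference from Young is described with no test. The gene (ID 29190) lies on the minus strand of chr3:137354161-137366503 in the GRCr8 assembly of RefSeq. The set of rat promoters used here held none for Penk, which was also higher on most aged arrays. The Pdyn promoter is printed with those of Pcsk2 and Cpe, the processing enzymes whose group means lay within 0.1 log2 units of Young rats. Each is the stretch from 250 bases before to 50 bases after the annotated start, 5′ to 3′ on the gene's own strand, at chr3:137366454-137366753 for Pdyn, chr3:151333688-151333987 (plus strand) for Pcsk2 and chr16:29796457-29796756 (plus strand) for Cpe. Capitals mark matches on either strand to the TATA box (TATAAA), the CCAAT box (CCAAT or ATTGG), the core of the cyclic AMP response element (TGACG or CGTCA) and the AP-1 site (TGANTCA).
Pdyn: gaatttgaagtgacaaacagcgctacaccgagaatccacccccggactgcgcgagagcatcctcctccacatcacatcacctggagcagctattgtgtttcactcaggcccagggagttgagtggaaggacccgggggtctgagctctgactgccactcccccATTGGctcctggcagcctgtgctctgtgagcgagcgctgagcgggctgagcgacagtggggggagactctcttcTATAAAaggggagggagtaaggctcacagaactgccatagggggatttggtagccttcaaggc
Pcsk2: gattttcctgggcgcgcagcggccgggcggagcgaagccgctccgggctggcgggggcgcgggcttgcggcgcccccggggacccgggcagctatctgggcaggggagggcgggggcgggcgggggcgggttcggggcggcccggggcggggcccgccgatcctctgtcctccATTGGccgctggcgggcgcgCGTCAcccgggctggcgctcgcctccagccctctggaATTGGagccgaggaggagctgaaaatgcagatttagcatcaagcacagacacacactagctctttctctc
Cpe: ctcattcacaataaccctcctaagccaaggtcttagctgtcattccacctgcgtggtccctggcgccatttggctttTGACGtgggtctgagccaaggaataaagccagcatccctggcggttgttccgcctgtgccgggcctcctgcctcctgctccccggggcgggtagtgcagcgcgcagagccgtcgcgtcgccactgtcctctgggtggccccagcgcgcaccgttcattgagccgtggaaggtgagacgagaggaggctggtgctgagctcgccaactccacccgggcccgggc
The Pdyn promoter held a TATAAA that begins 13 bases before the start and an ATTGG that begins 87 bases before it, and neither the full element TGACGTCA, its core, the AP-1 letters nor the Sp1 letters GGGCGG. Pcsk2 held ATTGG at 77 and 20 bases before its start, CGTCA at 57 bases before it and 7 GGGCGG matches on either strand, and Cpe held TGACG at 173 bases before its start and 1 GGGCGG at 89 bases. Of 33469 rat promoters of the same length, 14.2% held TATAAA, 37.5% a CCAAT box, 21.2% the core, 1.83% the full element, 7.33% the AP-1 letters and 33.1% GGGCGG. The base composition also differed, with 58.3% G and C for Pdyn, 73.3% for Pcsk2 and 64.7% for Cpe. A match describes the letters only, and its part in the level of any gene was not tested.

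On the log2 scale, Pdyn probe set 1383294_at had a lowest, median and highest level of 10.39, 10.65 and 10.77 on Aged Impaired arrays, 10.34, 10.65 and 10.84 on Aged Unimpaired arrays and 10.01, 10.31 and 10.44 on Young arrays. All 13 aged arrays lay above the Young mean and 11 lay above the highest Young array, while 5 Young arrays lay below the lowest aged array, so the groups overlapped at the edge. The means were 10.62 ± 0.15 in Aged Impaired (SD, n = 7), 10.63 ± 0.18 in Aged Unimpaired (SD, n = 6) and 10.26 ± 0.16 in Young rats (SD, n = 8). The difference from Young was 0.36 ± 0.08 for Aged Impaired, 0.37 ± 0.08 for Aged Unimpaired and 0.36 ± 0.07 for the mean of both aged groups (log2 units, moderated SE), the last a 1.29-fold higher level.

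Pdyn probe set 1369882_at had a lowest, median and highest level of 7.35, 7.76 and 8.31 on Aged Impaired arrays, 7.60, 8.00 and 8.13 on Aged Unimpaired arrays and 7.04, 7.42 and 7.77 on Young arrays. Here 12 of 13 aged arrays lay above the Young mean and 8 above the highest Young array, and the lowest of the aged arrays was Aged Impaired replicate 4. Means were 7.87 ± 0.32 in Aged Impaired, 7.96 ± 0.19 in Aged Unimpaired and 7.41 ± 0.26 in Young rats (SD, n = 7, 6 and 8). The difference from Young was 0.46 ± 0.13 for Aged Impaired, 0.55 ± 0.13 for Aged Unimpaired and 0.51 ± 0.11 for both together, a 1.42-fold higher level. Without the 4 arrays high in meningeal markers, the difference of Aged Impaired from Young was 0.36 on 1369882_at and 0.39 on 1383294_at, and that of all aged rats was 0.45 and 0.39. The 2 probe sets also moved together within groups: the deviations of the arrays from their group means correlated at r = 0.72 (permutation p = 0.00027) and rho = 0.709 (permutation p = 0.00049) over 21 arrays, and at r = 0.755 without the 2 arrays farthest out.

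**Figure D1:**
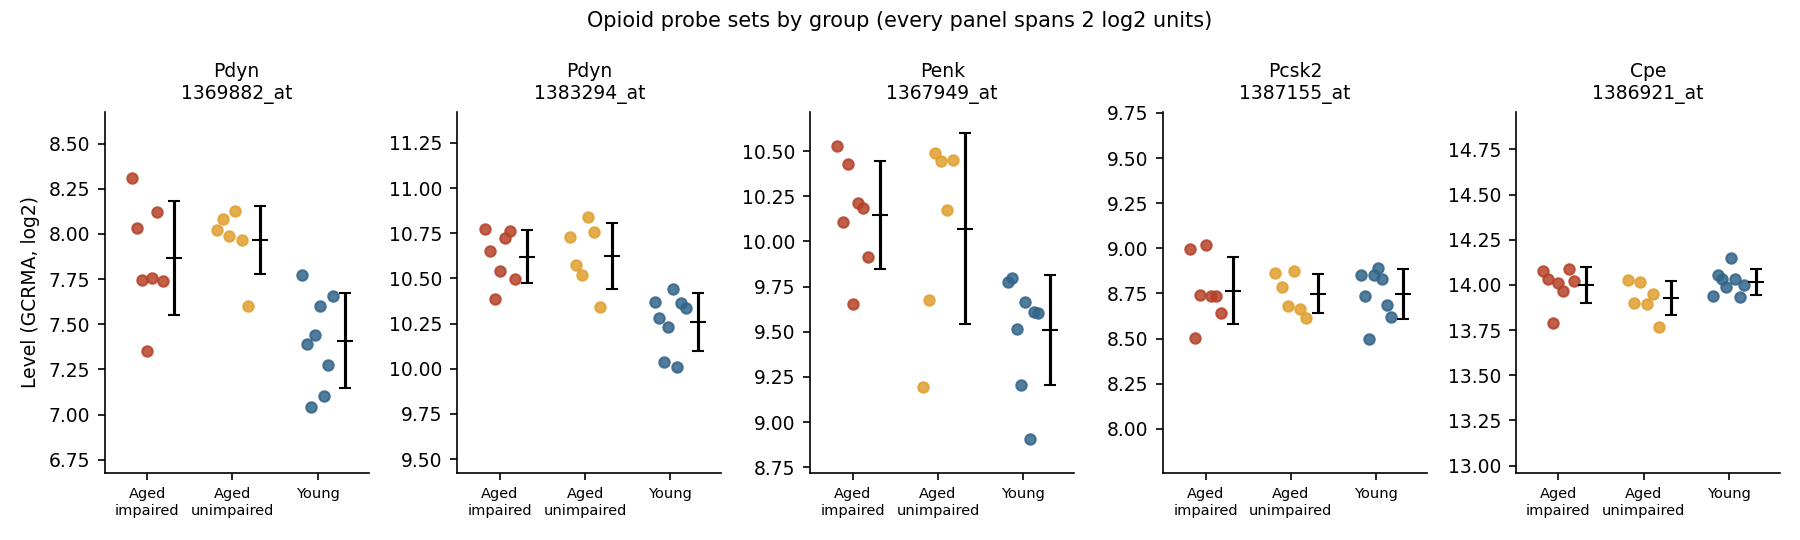
Log2 level of each tested probe set on every array, for Aged Impaired, Aged Unimpaired and Young rats (points, arrays; bars, mean ± SD; each panel spans 2 log2 units). Both Pdyn probe sets and Penk sit higher on most aged arrays, while the levels of Pcsk2 and Cpe overlap between groups, with 3 of 6 Aged Unimpaired Cpe arrays below the lowest Young array.

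Penk, the enkephalin precursor (ID 29237, chr5:21981381-21987074), was higher on most aged arrays, with a wide spread. Its lowest, median and highest log2 levels were 9.65, 10.19 and 10.53 on Aged Impaired arrays, 9.19, 10.31 and 10.49 on Aged Unimpaired arrays and 8.91, 9.61 and 9.80 on Young arrays. Of the 13 aged arrays, 12 lay above the Young mean and 10 above the highest Young array, and the exception was Aged Unimpaired replicate 1 at 9.19, below the Young mean. Means were 10.15 ± 0.30 in Aged Impaired, 10.07 ± 0.53 in Aged Unimpaired and 9.51 ± 0.30 in Young rats (SD, n = 7, 6 and 8). The SD among Aged Unimpaired arrays exceeded that of the other groups.

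The Penk difference from Young did not pass the threshold of 0.05 in any contrast. For all aged rats against Young it was 0.60 ± 0.16, with a 95% interval of 0.27 to 0.93 and an adjusted p of 0.0743 by limma. For Aged Impaired it was 0.64 ± 0.18 (adjusted p = 0.128, limma) and for Aged Unimpaired 0.56 ± 0.19 (adjusted p = 0.146, limma). Leaving out Aged Unimpaired replicate 1 moved the first to 0.69 with an adjusted p of 0.0163 and the Aged Unimpaired difference to 0.74 with an adjusted p of 0.0476 by limma. Over all 21 arrays left out in turn, the adjusted p by limma ranged from 0.0163 to 0.144 for all aged rats, from 0.0668 to 0.225 for Aged Impaired and from 0.0476 to 0.288 for Aged Unimpaired rats against Young. Under the other alternatives of processing it ranged, in the same order, from 0.0557 to 0.209, from 0.0962 to 0.450 and from 0.124 to 0.339. Without the arrays high in meningeal markers, the differences were 0.579, 0.582 and 0.576, with adjusted p of 0.209, 0.450 and 0.214 by limma. Markers of striatal neurons, a cell type rich in Penk and Pdyn, of which 4 of 7 were above the filter and Adora2a, Gpr6 and Rxrg were below it, summed to between 811 and 1170 on Aged Impaired, between 793 and 910 on Aged Unimpaired and between 724 and 875 on Young arrays. Ppp1r1b and Foxp1 had the highest means among them and so weigh most in the sums. For all aged rats against Young, Ppp1r1b was at 0.24, Drd1 at 0.10, Rgs9 at 0.02 and Foxp1 at -0.0005. The part of striatal neurons in the Pdyn and Penk values was not tested.

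**Figure D2:**
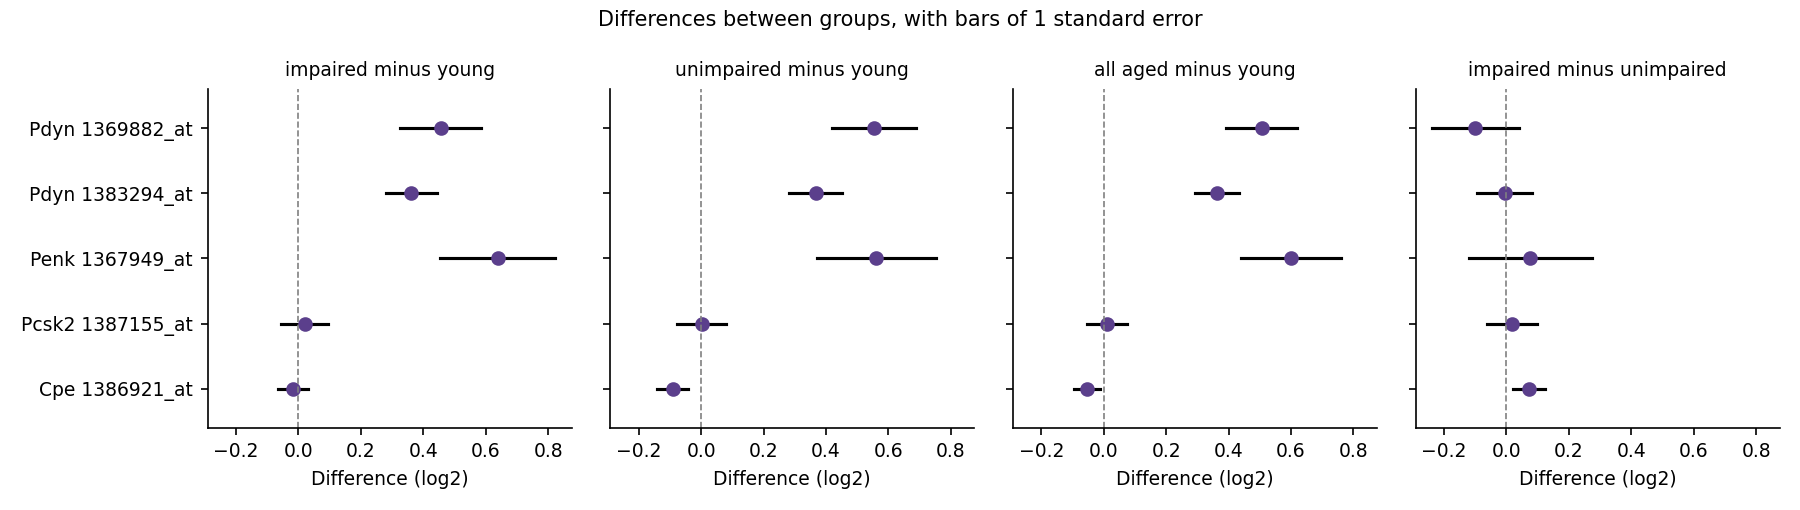
Difference in log2 level of each tested probe set in 4 contrasts (point, limma estimate; bar, 1 moderated standard error). Pdyn and Penk lie between 0.36 and 0.64 above Young in both aged groups, and all 5 probe sets lie near 0 for Aged Impaired minus Aged Unimpaired.

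Neither processing enzyme passed the threshold in any contrast. Pcsk2 (chr3:151333938-151636628), the convertase that makes the shorter dynorphins, had lowest, median and highest levels of 8.50, 8.73 and 9.02 on Aged Impaired, 8.62, 8.73 and 8.87 on Aged Unimpaired and 8.50, 8.78 and 8.89 on Young arrays. Its groups overlapped over most of their range, and the difference of all aged rats from Young was 0.01 ± 0.06 (95% interval -0.12 to 0.15, adjusted p = 0.957 by limma). Cpe (chr16:29796707-29908647) had lowest, median and highest levels of 13.79, 14.02 and 14.09 on Aged Impaired, 13.77, 13.93 and 14.03 on Aged Unimpaired and 13.93, 14.02 and 14.15 on Young arrays. No aged array lay above the highest Young array and 3 of 6 Aged Unimpaired arrays lay below the lowest, and the difference of all aged rats from Young was -0.05 ± 0.04 (95% interval -0.14 to 0.03, adjusted p = 0.583 by limma).

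The kappa receptor (Oprk1, 3 probe sets), the mu receptor (Oprm1, 2 probe sets) and the delta receptor (Oprd1, 1 probe set), which receive the peptides and couple to inhibitory G proteins, lay between 1.85 and 2.21 on every array. No probe set of them varied by more than 0.05 log2 units across the 21 arrays, a range shared by 11.8% of all probe sets, so no fold is given. The order of the 3 receptors and their presence in the tissue cannot be read from these values.

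**Figure D3:**
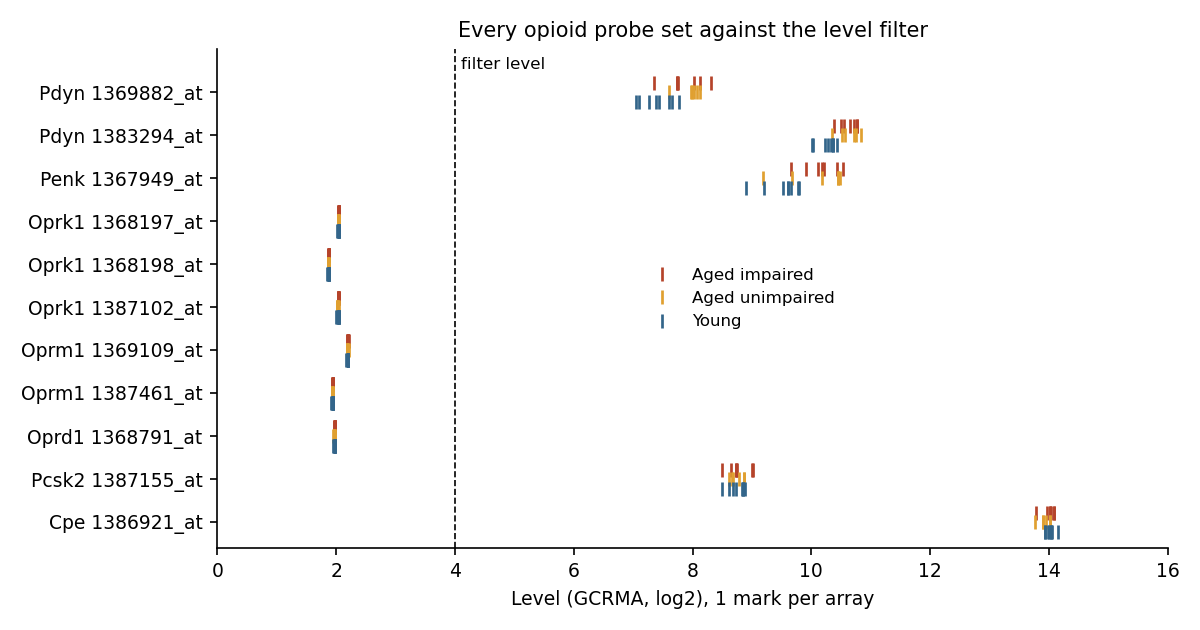
Log2 level of each of the 11 opioid probe sets on every array (marks), with the filter at a log2 level of 4 (line). The 6 receptor probe sets lie between 1.85 and 2.21, and the 5 tested probe sets lie above the line on every array.

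Among the 5 tested probe sets, 1 passed the threshold for Aged Impaired against Young, where 0.514% of all tested probe sets did, 2 passed for Aged Unimpaired against Young, where 1.13% did, and 2 passed for all aged against Young, where 1.11% did. Every call was Pdyn, which the choice of genes had fixed, so these counts carry no support.

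No opioid probe set passed the threshold between the aged groups. For Aged Impaired minus Aged Unimpaired, 0 of 5 probe sets passed the threshold by limma, 0 had an unadjusted p under 0.05, and 0% of all probe sets passed, although 14.5% had an unadjusted p under 0.05. The difference was -0.10 ± 0.14 for Pdyn 1369882_at (95% interval -0.39 to 0.19) and -0.01 ± 0.09 for Pdyn 1383294_at (95% interval -0.19 to 0.18), with adjusted p of 0.766 and 0.981 by limma. It was 0.08 ± 0.20 for Penk (95% interval -0.33 to 0.49), 0.02 ± 0.08 for Pcsk2 (95% interval -0.15 to 0.18) and 0.07 ± 0.05 for Cpe (95% interval -0.03 to 0.18). After median centring, the 5 differences in this order were -0.16, -0.07, 0.02, -0.04 and 0.01. The Penk interval does not reach the estimated Penk difference of either aged group from Young, 0.64 for Aged Impaired and 0.56 for Aged Unimpaired. It does overlap the 95% intervals of those differences, 0.26 to 1.02 and 0.16 to 0.96. Whether the difference between the aged groups is smaller than these was not tested. The Pdyn intervals are not set against the Pdyn difference from Young, because the genes were chosen by that difference.

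Variation from array to array within groups gave no pair of genes past the threshold. Over 6 pairs of genes and 21 arrays, with group means removed, no correlation passed Benjamini-Hochberg adjustment. Pdyn with Cpe had r = 0.422 (permutation p = 0.0561, adjusted p = 0.337) and rho = 0.265, and r = 0.340 without the 2 arrays farthest out. Pdyn with Pcsk2 had r = 0.332 (permutation p = 0.141, adjusted p = 0.422) and rho = 0.395, and r = 0.369 without the 2 arrays farthest out. Pdyn and Penk had r = 0.165 and rho = 0.245 (adjusted p = 0.475 for r). After median centring, r was 0.233 for Pdyn with Cpe, 0.201 for Pdyn with Pcsk2 and 0.151 for Pdyn with Penk. As a description over 8733 other genes, those most like Pdyn in deviation from the group means were Srp14 (r = 0.849), Chmp5 (r = 0.830), Gabarapl1 (r = 0.811), Ano3 (r = 0.804) and Atp6v1d (r = 0.804). Their own differences of all aged rats from Young were -0.03 for Srp14, 0.01 for Chmp5, 0.08 for Gabarapl1, 0.03 for Ano3 and 0.01 for Atp6v1d. The genes most like Penk were Hpcal1 (r = 0.776), Sgsm2 (r = 0.713), Myrf (r = 0.696), Cntf (r = 0.686) and Wdr31 (r = 0.670).

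**Figure D4:**
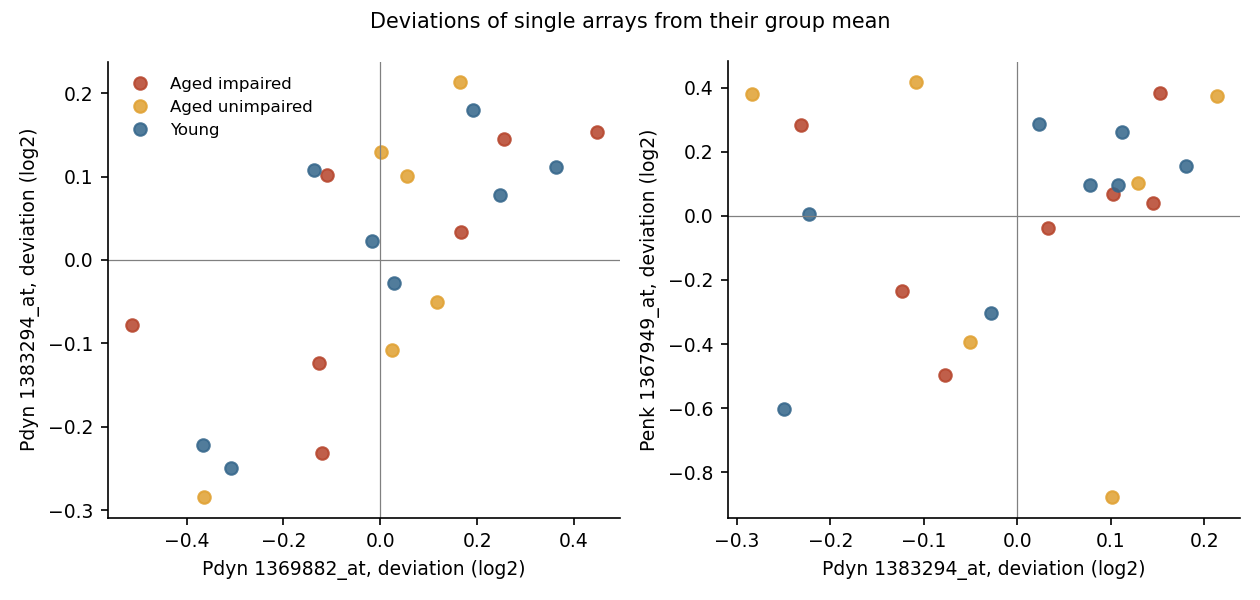
Deviation of each array from its group mean in log2 units: the 2 Pdyn probe sets against each other (left) and Pdyn 1383294_at against Penk (right). The left points rise together and the right points show no clear relation.

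The other genes of the pathway were taken from lists made with earlier results of these data known. Over all 8737 tested genes, 43.1% had a positive difference of all aged rats from Young. Of 28 tested genes of propeptide processing and dense core vesicles, 11 had a positive and 17 a negative difference of all aged rats from Young, 0 were higher and 1 was lower past the threshold, where 0.705% of all probe sets were lower, and the median was -0.02 against -0.01 over 8737 genes. The gene lower for all aged rats was Qpct, which forms the pyroglutamate end of some peptides, with a mean of 3.78 in Aged Impaired, 3.46 in Aged Unimpaired and 4.14 in Young rats. Its aged means lie below the filter and it entered the test through its Young level, so its differences of -0.52 for all aged and -0.68 for Aged Unimpaired rats against Young are values only, with no test read from them. For Aged Unimpaired against Young, 2 of the 28 were lower past the threshold, where 0.936% of all probe sets were lower, and Qpct is 1 of them. The other, Ptprn2, a membrane protein of dense core vesicles, fell by 0.29 ± 0.05 in Aged Unimpaired rats (adjusted p = 0.0129, limma), with means of 8.41 in Aged Impaired, 8.14 in Aged Unimpaired and 8.43 in Young rats. The Ptprn2 difference for Aged Impaired minus Aged Unimpaired was 0.27 ± 0.06 (adjusted p = 0.129, limma). In the same contrast of Aged Unimpaired with Young, 5871 of 8737 genes were negative, and the median over all genes was -0.04. Beside them, 9 of 9 oligodendrocyte markers were negative with a median of -0.32, of which Cldn11, Mal and Ugt8 fell past the threshold. Of 8 CA1 pyramidal neuron markers, 7 were negative, with a median of -0.32 and 0 past the threshold. Oligodendrocyte markers summed to between 19004 and 26210 on Aged Impaired, between 19931 and 23012 on Aged Unimpaired and between 21341 and 24425 on Young arrays, and CA1 markers to between 1520 and 2232, between 1397 and 1797 and between 1334 and 2556 in the same groups. Their part in the Ptprn2 value was not tested.

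The counts of the lists below stand beside 43.1% of all 8737 genes with a positive difference of all aged rats from Young. Among 8 tested enzymes that degrade opioid peptides, 2 had a positive and 6 a negative difference of all aged rats from Young, with 0 past the threshold. Thop1 and Prep, peptidases of short peptides, were at -0.17 ± 0.06 and -0.13 ± 0.05. Of 19 tested genes of receptor signalling, 7 were positive and 12 negative with 0 past the threshold, and the inward rectifier channel subunit Kcnj3, which opens under opioid receptors, was at 0.09 ± 0.05 (adjusted p = 0.378, limma), while Rgs14, a regulator of G protein signalling, was at -0.12 ± 0.06 (adjusted p = 0.339, limma). Of 12 tested regulators of Pdyn and Penk transcription, 9 were positive and 3 negative with 0 past the threshold. Kcnip3, which encodes DREAM, a repressor of Pdyn, was at 0.09 ± 0.04 (adjusted p = 0.309, limma), and Crtc2, a coactivator of CREB, was at 0.07 ± 0.05. Of 7 tested other dentate neuropeptides, 3 were positive and 4 negative with 0 past the threshold, among them Cck at -0.15 ± 0.07 and Bdnf at 0.12 ± 0.11. Of 5 other opioid genes, Ogfr alone was tested, at -0.03.

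Between the aged groups, 0 genes of any list passed the threshold by limma, and 74.7% of all 8737 genes were positive, with a median of 0.05. The medians of the lists lay between -0.05 and 0.13. The highest belonged to other neuropeptides, of which 6 of 7 were positive, among them Sst, an interneuron peptide, at 0.46 ± 0.17 (adjusted p = 0.235, limma) and Cck at 0.16. Vgf, a granin-like precursor, was at 0.32 ± 0.12 (adjusted p = 0.229, limma). Among the other lists, Crtc2 was at 0.16 ± 0.06, Atf1 at 0.19 ± 0.09, Rgs14 at 0.14 ± 0.07, the G protein subunit Gnai2 at 0.13 ± 0.06, and the peptidases Ece2 and Enpep at 0.11 ± 0.06 and -0.09 ± 0.06, with adjusted p by limma between 0.234 and 0.523. The Enpep difference ranged from -0.106 to -0.0095 with 1 array left out. Enpep was 4.507 on Aged Unimpaired replicate 1 and between 4.02 and 4.10 on the other arrays of that group, near the filter. Markers of GABAergic interneurons, 9 of 14 above the filter, summed to between 5570 and 6446 on Aged Impaired, between 4786 and 5754 on Aged Unimpaired and between 5096 and 6310 on Young arrays, and their part in these values was not tested. Sst, Cck and Npy belong to both lists, and Npy, at 0.13, is the median gene of the neuropeptide list.

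**Figure D5:**
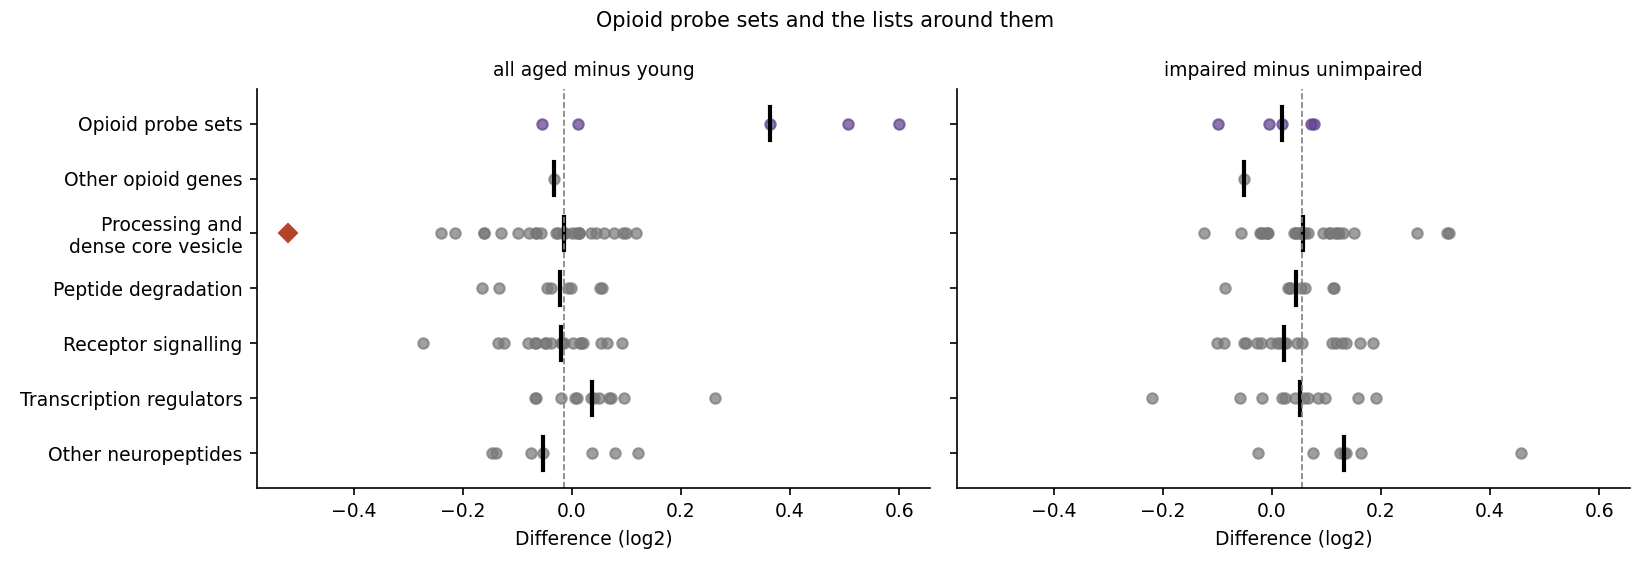
Log2 difference of each opioid probe set and of each tested gene of 6 pathway lists, for all aged minus Young and Aged Impaired minus Aged Unimpaired (points, genes; black bar, median; dashed line, median of all genes; red diamond, gene past the threshold). The diamond is Qpct at -0.52, which entered the test through its Young level and whose aged means lie below the filter, and the medians of the 6 lists lie between -0.05 and 0.13.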

How the data were processed

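Values are the log2 expression levels that the authors deposited, for which the submitters' processing notes name GCRMA (version not given in the sources used here). GCRMA estimates background from probe sequence, which sets very low probe sets to nearly constant values. Of 24 labelled samples, 3, 1 per group, had empty columns and were not analysed here. Probe sets were named from the platform annotation: 20826 had 1 symbol, 436 several and 9780 none. Gene positions and promoters came from RefSeq (GRCr8), and 7 member genes matched by gene ID.

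Probe sets above log2 4 on at least 6 arrays entered 1 limma model (limma 3.58.1, R 4.3.3) over all 21 arrays and 3 groups, with 18 residual degrees of freedom. P-values were adjusted by Benjamini-Hochberg over all 15177 probe sets, with a threshold of 0.05. The fit was tested on simulated data. Correlations used 100000 permutations, two-sided. A gene is represented by its tested probe set with the highest mean. Named genes were every member probe set, list genes past the threshold, those of smallest p, and the 5 genes most like Pdyn and Penk. Alternatives changed the filter, centring, quantile normalization, array weights, variance trend, arrays included and a replicate block. The labels gave no batch. Deviations of arrays with the same replicate number correlated at a median of -0.0112 over 17 pairs, of which 4 exceeded 0.1. Over 129 pairs with other numbers the median was -0.0036 and 12 exceeded 0.1. The highest correlations were 0.200 and 0.187. These values do not settle whether the numbers pair the arrays, and the main model did not pair them. The members and lists were chosen with earlier results of these data known.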

Additional observations from a re-analysis of the deposited data

Results flagged for a closer look

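In 66 groups of arrays checked for 1 array standing apart from the rest of its group, 6 were found, and chance gives about 1 in 20. Pdyn 1369882_at was 7.601 in Aged Unimpaired replicate 8, where the other arrays of the group lay between 7.97 and 8.13. Cpe was 13.79 in Aged Impaired replicate 3, with the others between 13.97 and 14.09. Vgf was 8.371 in Aged Impaired replicate 7, with the others between 7.93 and 8.09. Rgs14, a regulator of G protein signalling, was 8.027 in the same array, with the others between 8.18 and 8.29. Enpep was 4.507 in Aged Unimpaired replicate 1, with the others between 4.02 and 4.10. Crtc2 was 6.927 in the same array, with the others between 7.06 and 7.13. Aged Unimpaired replicate 1 was also the lowest aged array for Penk.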

How the results depend on the processing

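Every Pdyn difference from Young kept its direction under all alternatives, between 0.36 and 0.63 on 1369882_at and between 0.32 and 0.44 on 1383294_at. The number of opioid probe sets past the threshold did move. For Aged Impaired against Young it was 1, and 0 with no filter on level, with only the groups compared and without the arrays high in meningeal markers. For Aged Unimpaired against Young it was 2, and 0 under the same 3 settings. For all aged against Young it was 2, and 1 with no filter and without those arrays. Leaving out 1 array at a time gave 0 to 1, 0 to 2 and 1 to 3 in these contrasts, and 0 throughout for Aged Impaired against Aged Unimpaired. Penk was past the threshold in these fits only without Aged Unimpaired replicate 1 (all aged and Aged Unimpaired against Young). The other calls were Pdyn's and are a description, not support: of 21 such fits, 1383294_at was past the threshold in 5 (Aged Impaired), 12 (Aged Unimpaired) and 21 (all aged) and 1369882_at in 1, 4 and 16. Since the replicate numbers were not taken to pair the arrays, the replicate block is given apart: it gave 1 probe set in each of the 3 contrasts with Young and ended the Ptprn2 call (-0.27, adjusted p 0.0863 by limma). Over all probe sets, the counts of 78, 172 and 168 for Aged Impaired, Aged Unimpaired and all aged against Young were 114, 9 and 76 with the block, 33, 67 and 90 with no filter, 29, 96 and 86 without the arrays high in meningeal markers, 33 and 69 with only the groups compared (first 2 contrasts), and 36 to 161, 59 to 222 and 89 to 239 with 1 array left out, the 59 without Young replicate 9. Without the arrays high in meningeal markers, Aged Impaired minus Aged Unimpaired was -0.17 for Pdyn 1369882_at, 0.0065 for Penk, 0.10 for Pcsk2 and 0.09 for Cpe, and Pcsk2 against Young was 0.09 for Aged Impaired and 0.04 for all aged. Cpe against Young was then -0.0085 for Aged Impaired, -0.102 for Aged Unimpaired and -0.055 for all aged rats. Among the opioid probe sets, signs turned for these differences near 0: Pdyn 1383294_at for Aged Impaired minus Aged Unimpaired was 0.0077 without those arrays, and Pcsk2 was -0.034 (block) and -0.0067 (those arrays) for Aged Unimpaired and -0.012 (block) for all aged against Young, and -0.042 (median centring), -0.044 (quantile normalization) and -0.0010 (array weights) for Aged Impaired minus Aged Unimpaired. Leaving out arrays gave for Aged Impaired minus Aged Unimpaired -0.063 to 0.037 (Pdyn 1383294_at), -0.10 to 0.16 (Penk) and -0.023 to 0.062 (Pcsk2). Against Young it gave, for Pcsk2, -0.022 to 0.064 (Aged Impaired), -0.034 to 0.028 (Aged Unimpaired) and -0.024 to 0.033 (all aged), and for Cpe -0.032 to 0.017 (Aged Impaired).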
